A study of Mus musculus with 2 samples.

Results

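The nuclear genes of the mitochondrial respiratory chain and of ATP synthase were compared between splenic T cells of C57BL/6 mice that had been sorted as CD8+CD122+ or as CD8+CD122-. The genes were taken by name, as those beginning with Nduf, Uqcr, Atp5 or Cox4 to Cox8 together with the 4 Sdh genes, Cyc1 and Cycs. This gave 79 genes, measured by 120 probes, of 27777 genes on the array. By complex there were 31 genes of complex I, 4 of complex II, 8 of complex III, 1 of cytochrome c, 18 of complex IV and 16 grouped with ATP synthase, and Ndufaf1, an assembly factor of complex I, completed the set. CD122 is a receptor chain shared by interleukin 2 and interleukin 15, and the series calls the CD8+CD122+ cells regulatory. Their messenger RNA was amplified, and each of 2 Agilent arrays received both populations in different dyes. On array 1 the CD8+CD122+ cells were labelled with Cy5 and the CD8+CD122- cells with Cy3, and on array 2, which is labelled a second trial, the dyes were exchanged. The labels give no age, sex or treatment, nor whether mice were pooled or the arrays came from separate mice. p-values therefore measure only the spread between these arrays, which may be technical.

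Complex I takes electrons from NADH and complex II from succinate, complex III passes them through cytochrome c to complex IV, and complex IV reduces oxygen. Complexes I, III and IV pump protons across the inner membrane, and ATP synthase uses the returning protons to make ATP. The catalytic core of complexes I, III and IV is encoded partly in mitochondrial DNA, whose genes are not among those chosen here. Memory CD8 T cells are known for a larger reserve of respiratory capacity than naive cells, and interleukin 15 is known to favour it.

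The proximal promoters of the 3 members at the ends of the range of ratios are shown. Atp5g2 had the highest mean ratio of CD8+CD122+ over CD8+CD122- cells among all members, and Sdha and Cox7a2l the lowest. These ranks take each gene by its brightest probe. The sequences are the 250 bases before the RefSeq start site in GRCm38.p6, all on the minus strand and written 5′ to 3′ along the gene. Capitals mark matches to the palindromic core of 10 letters bound by NRF1, a factor known to act on many respiratory chain genes, with any base allowed at the sixth letter. Atp5g2 lies at chr15:102671048-102671297, Sdha at chr13:74350241-74350490 and Cox7a2l at chr17:83514334-83514583.
Atp5g2: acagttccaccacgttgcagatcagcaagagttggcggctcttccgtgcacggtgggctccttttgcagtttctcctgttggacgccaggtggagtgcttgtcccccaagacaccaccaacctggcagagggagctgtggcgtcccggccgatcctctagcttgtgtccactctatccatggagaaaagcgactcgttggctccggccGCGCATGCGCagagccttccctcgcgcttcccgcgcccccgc
Sdha: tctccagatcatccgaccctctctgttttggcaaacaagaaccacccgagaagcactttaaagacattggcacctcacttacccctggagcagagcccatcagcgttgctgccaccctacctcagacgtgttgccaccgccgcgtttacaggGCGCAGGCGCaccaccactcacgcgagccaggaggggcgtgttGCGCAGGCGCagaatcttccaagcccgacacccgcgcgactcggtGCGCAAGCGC
Cox7a2l: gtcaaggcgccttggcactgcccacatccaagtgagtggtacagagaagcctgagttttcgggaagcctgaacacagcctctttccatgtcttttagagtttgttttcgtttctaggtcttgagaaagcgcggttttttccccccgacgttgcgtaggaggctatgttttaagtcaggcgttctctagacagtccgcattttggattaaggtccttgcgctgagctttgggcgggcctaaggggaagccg
Atp5g2 held 1 match, which began 42 bases before the start site, Sdha held 3, which began 98, 55 and 10 bases before it, and in the Cox7a2l window these letters were not found. Over all members, 69 windows of 64 genes were matched by symbol. The NRF1 core with its open base, searched on both strands, was in 14 of them (20.3%), against 3.74% of all 32851 windows of the same length. The form without an open base, as in Atp5g2, whose matches are all among the former, was in 4 (5.8%, against 0.782%). CCGGAAG, a core bound by ETS factors such as GABP, was in 12 (17.4%, against 6.91%), and 23 windows (33.3%, against 10.1%) held either the open NRF1 core or CCGGAAG. These are matches of letters and do not show that a factor bound there.

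The labels were first set against marker genes, on the scale used throughout, a log2 ratio of CD8+CD122+ over CD8+CD122-. Il2rb, which encodes CD122, had log2 ratios of 2.60 on array 1 and 2.34 on array 2. The 4 memory markers were all at least 1.2-fold higher on both arrays. Of 5 CD8 T cell markers 3 were at least 1.2-fold lower on both arrays, Cd8a (-0.31 and -0.91), Cd8b1 (-0.48 and -0.86) and Cd3g (-0.39 and -0.60). In this list Cd5 was higher (0.36 and 0.70) and Cd3e was split (-0.06 and 0.03). Of 5 myeloid markers 1 was at least 1.2-fold higher on both arrays, Lyz2 at 0.77 and 0.33, and of the B cell, NK cell, CD4 T cell, dendritic and erythroid markers 0 were. Among 5 cycling markers 1 was higher by that measure, Mki67 at 0.81 and 1.60, and the other 4 lay between 0.01 and 0.18 on the arrays. Between 69.5% and 83.4% of spots that were not controls lay well above background in each population on each array.

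Members of the respiratory chain were detected in both populations but differed little between them. Of the 120 probes, 113 passed the filter on dim probes and 0 were saturated, and 78 of the 79 genes were tested; Cox8c, a testis isoform, was not well above background. For each tested gene the brightest probe was flagged well above background in all 4 measurements, that is in either population on either array. The flag also passed dim isoforms of restricted tissues, such as Cox8b and Cox4i2 (mean log2 intensities 6.11 and 6.21). For these the flag alone does not show expression. None of the 78 members reached 1.2-fold on both arrays in the same direction. The count was 0 higher, against 2.03% of the 21961 genes tested, and 0 lower, against 2.15%. The same held at 1.5-fold (0 and 0 members, against 0.742% and 0.369% of all genes) and at 2-fold (0 and 0, against 0.31% and 0.105%). A mean log2 intensity of at least 9 was measured for 60 members. Among the 3167 genes that bright, 4.64% were at least 1.2-fold higher and 5.15% lower on both arrays, and 0 of the 60 members were either.

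limma called 0 of 78 members at an adjusted p under 0.05 (Benjamini-Hochberg over all genes), and 0% of all genes as well. The smallest adjusted p of limma was 0.701 over the members and 0.151 over all genes. At an unadjusted p under 0.05 it found 4 members, Atp5g2, Cox7a2l, Cox7c and Ndufa4, a share of 78 near the 6.39% of all genes. The widths of limma's 95% intervals describe, under this model, what a difference could still be. The median distance from estimate to bound was 0.25 on the log2 scale, from 0.19 to 0.72, and the intervals of all 78 members lay within 2-fold in either direction and those of 71 within 1.5-fold. These intervals rest on n = 2 arrays and borrow their spread from all genes. That spread may be too small for the members, whose arrays differed by a median of 0.17, beside 0.12 for all genes. With an intensity trend in limma 0 members had an unadjusted p under 0.05. The intervals do not show that the populations were equal.

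The sign of the difference depended on the array for most members. Of 78 members 57 had a positive ratio on array 1, against 54.2% of all genes, and 25 on array 2, against 50.9%. The ratio was positive on both arrays in 19 members (29.2% of all genes) and negative on both in 15 (24.1%), and in 44 the arrays differed in sign (46.8%). Most of these 44 went one way, with 38 positive on array 1 and negative on array 2 (25% of all genes) and 6 the reverse (21.7%). A positive ratio on array 1 and a negative one on array 2 means a brighter Cy5 channel on both, and dye and trial cannot be told apart here. Over the 78 members, which share both arrays and are not replicates, the 2 ratios were correlated at 0.0458 (Pearson) and 0.0141 (Spearman). Over all genes the correlations were 0.406 (Pearson) and 0.103 (Spearman). The median of the members' mean ratios was 0.01, with 0.08 on array 1 and -0.07 on array 2, beside 0.01, 0.01 and 0.00 for all genes. With median centring in place of loess 75 of 78 members were positive on array 1 and negative on array 2, 0 were positive on both and 1 was negative on both. Signs that repeat between the arrays, given below for single genes and complexes, therefore hold after loess and, apart from that 1 member, not with median centring.

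**Figure D1:**
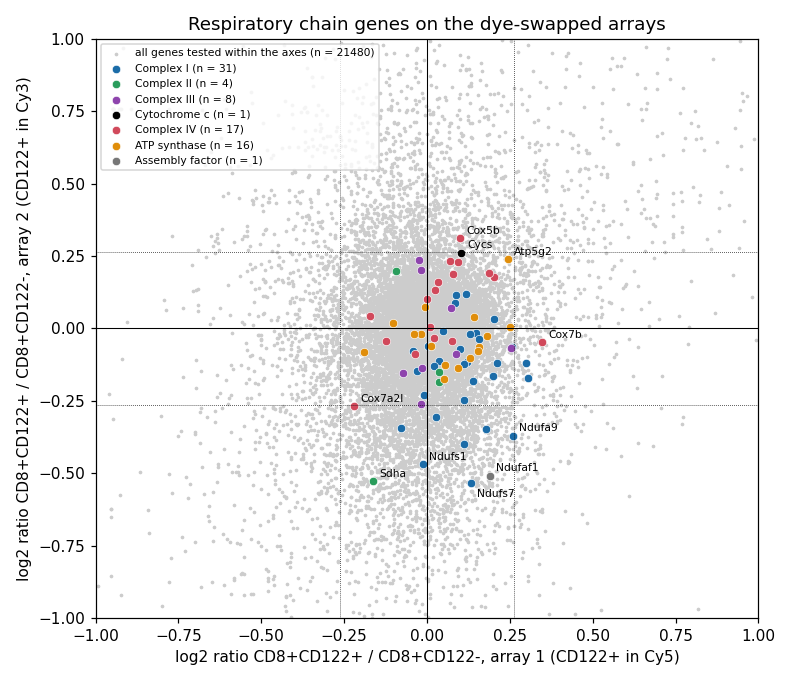
Log2 ratio of CD8+CD122+ over CD8+CD122- on array 1 (x axis) and array 2 (y axis). Coloured points are the 78 tested members by complex, grey points the 21480 tested genes that fall within the axes, and dotted lines mark 1.2-fold; no member lies beyond 1.2-fold on both arrays in the same direction, and Sdha, Ndufs7 and Ndufaf1 are lowest on array 2.

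Complex I genes were mostly split between the arrays. Of these 31 genes 22 were positive on array 1 and negative on array 2 (25% of all genes) and 0 were the reverse (21.7%). In complex I 4 were positive on both (29.2%) and 5 negative on both (24.1%). Its median was -0.00 for the mean, 0.11 on array 1 and -0.12 on array 2. The 7 nuclear-encoded core subunits, which bind the flavin and the iron-sulphur clusters, had a median of -0.14, with 0.03 on array 1 and -0.31 on array 2, and all 7 were negative on array 2. The 24 accessory subunits, which surround and stabilise the core, had a median of 0.02, with 0.13 on array 1 and -0.10 on array 2. Whether core and accessory subunits differ was not tested. The split of complex I genes between the arrays was shared by 18 of 33 assembly factors and 41 of 77 mitochondrial ribosome genes.

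Ndufs1, the largest core subunit and a carrier of iron-sulphur clusters, had the lowest mean of complex I. Its log2 signal was 9.51 in CD8+CD122+ and 9.52 in CD8+CD122- cells on array 1, and 9.40 and 9.87 on array 2. The ratios were thus -0.01 and -0.47, with a mean of -0.24 ± 0.32 (SD, n = 2 arrays, here and below), so that array 2 alone set the difference (limma's adjusted p 0.896). Ndufv1, the core subunit that binds the flavin, was also negative on both arrays, with -0.03 and -0.15. Ndufs7, which carries the last iron-sulphur cluster before quinone, had the widest split between the arrays of any subunit. Its log2 signal was 10.08 in CD8+CD122+ and 9.95 in CD8+CD122- cells on array 1, and 9.61 and 10.14 on array 2, giving ratios of 0.13 and -0.54. Ndufa9 (0.26 and -0.37), Ndufb3 (0.18 and -0.35) and the assembly factor Ndufaf1 (0.19 and -0.51) were split in the same way. At the other end Ndufa1, an accessory subunit of the membrane arm, had the highest mean, 0.12 ± 0.002 from ratios of 0.12 and 0.12 on its brightest probe. Its other tested probe gave 0.20 on array 1 and -0.06 on array 2, so the sign on array 2 depended on the probe. Ndufb7 and Ndufb9, accessory subunits with 1 probe each, had similar ratios on the arrays, with 0.09 and 0.09 for Ndufb7 and 0.09 and 0.11 for Ndufb9.

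**Figure D2:**
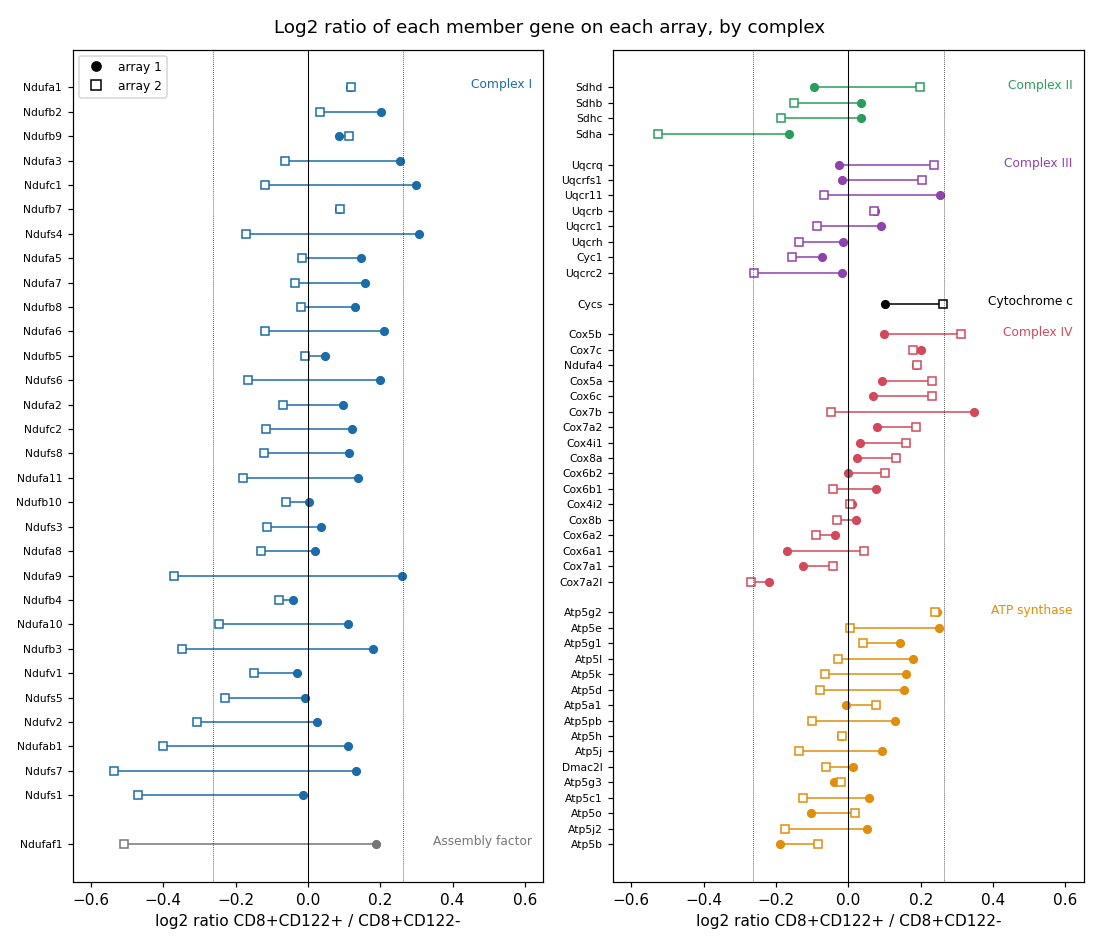
Log2 ratio of CD8+CD122+ over CD8+CD122- (x axis) of 77 of the 78 tested members on array 1 (filled circles) and array 2 (open squares), grouped by complex and sorted by the mean, with dotted lines at 1.2-fold. In complex I the open squares lie left of the filled circles for most genes. Most widely expressed subunits of complex IV lie to the right of 0 on both arrays.

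The 4 subunits of complex II, which is also the succinate dehydrogenase of the citric acid cycle, had a median of -0.07, with -0.03 on array 1 and -0.17 on array 2. Sdha, the flavoprotein that oxidises succinate, had the lowest mean ratio of all members by the brightest probe of each gene. The log2 signal of Sdha was 7.64 in CD8+CD122+ and 7.80 in CD8+CD122- cells on array 1, and 7.93 and 8.46 on array 2. That gave ratios of -0.16 and -0.53 and a mean of -0.35 ± 0.26, or 1.27-fold lower (limma's adjusted p 0.837). On its 2 other tested probes the ratios were 0.14 and -0.51, and -0.02 and -0.12, so the sign on array 1 depended on the probe. With the mean of all probes of a gene Sdha was at -0.20, and Cox7a2l was the lowest member at -0.245. Sdhb, the iron-sulphur subunit (0.04 and -0.15), Sdhc (0.04 and -0.19) and Sdhd (-0.09 and 0.20), the membrane anchors, had opposite signs on the arrays.

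Complex III had 8 genes, of which 1 kept a positive sign across the arrays (29.2% of all genes) and 3 a negative sign (24.1%). The complex's other 4 had opposite signs (46.8%). Its median was 0.04 for the mean although the median of each array was negative, -0.02 and -0.08. Uqcrq, a small subunit next to cytochrome b, was highest at -0.02 and 0.24. Uqcrfs1, the Rieske iron-sulphur protein, had -0.02 and 0.20, and Uqcrc1, a core protein, 0.09 and -0.09. Cyc1, which encodes cytochrome c1, was negative on both at -0.07 and -0.16, as was the core protein gene Uqcrc2, the lowest, at -0.02 and -0.26. For all 8 genes limma's 95% interval included 0.

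Cycs, the gene of somatic cytochrome c, which carries electrons to complex IV and also takes part in apoptosis, was positive on both arrays. Its log2 signal was 11.31 in CD8+CD122+ and 11.20 in CD8+CD122- cells on array 1, and 11.21 and 10.95 on array 2. The ratios of 0.10 and 0.26 gave a mean of 0.18 ± 0.11, or 1.13-fold (limma's adjusted p 0.859). All 3 of its probes were positive on both arrays, between 0.10 and 0.17 on array 1 and between 0.14 and 0.26 on array 2.

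Most widely expressed subunits of complex IV had positive ratios that repeated. Among all 17 tested genes of the complex the sign was positive on each array in 10 (29.2% of all genes). It was negative on each in 3 (24.1%) and split in 4 (46.8%). The 10 included 2 dim isoforms of restricted tissues, Cox4i2 (0.01 and 0.00) and Cox6b2 (0.00 and 0.10). Their mean log2 intensities were 6.21 and 7.34. Of the 12 widely expressed subunits 8 were positive on both, 1 was negative on both and 3 were opposite. The median of the 12 was 0.14, and 0.08 on array 1 and 0.17 on array 2. With median centring 0 of these 12 were positive on both. Cox5b, a subunit on the matrix side, was the highest. The log2 signal of Cox5b was 11.05 in CD8+CD122+ and 10.95 in CD8+CD122- cells on array 1, and 11.28 and 10.96 on array 2, so that the ratios were 0.10 and 0.31. The mean was 0.21 ± 0.15, or 1.15-fold (limma's adjusted p 0.861). Cox7c and Ndufa4 repeated more closely. Cox7c had log2 signals of 10.28 and 10.08 on array 1 and 10.99 and 10.82 on array 2, and ratios of 0.20 and 0.18. Ndufa4, which despite its name is known as a subunit of complex IV, had 11.70 and 11.51 on array 1 and 11.00 and 10.81 on array 2, and ratios of 0.19 and 0.19. Cox4i1, a subunit needed to build the complex, was positive at 0.03 and 0.16 and Cox5a at 0.09 and 0.23, but the other Cox5a probe gave -0.11 on array 1.

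Cox7a2l went the other way. It is related to the Cox7a subunits and joins complexes III and IV into supercomplexes, and C57BL/6 mice are known to carry a shortened form of it. Its log2 signal was 10.26 in CD8+CD122+ and 10.48 in CD8+CD122- cells on array 1, and 10.38 and 10.65 on array 2. CD8+CD122+ cells were lower on both arrays, by ratios of -0.22 and -0.27 with a mean of -0.25 ± 0.03, or 1.19-fold lower (limma's unadjusted p 0.0283, adjusted p 0.712). Its relative Cox7a2, the widely expressed Cox7a subunit, had 0.08 and 0.19. Cox7a2l has 1 probe on the array, so no other probe bears on its value. The isoforms known from muscle, heart, lung or testis had ratios nearer 0. Of 6 such genes 5 were tested, with means between -0.08 for Cox7a1 and 0.05 for Cox6b2, and 4 of them, Cox4i2 (0.01 and 0.00), Cox8b, Cox6a2 and Cox7a1, had mean log2 intensities between 6.11 and 6.97. At such intensities the offset of the background correction shrinks ratios, so values near 0 do not show equal expression.

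Most genes grouped with ATP synthase differed in sign between the arrays. The group holds Dmac2l, also named Atp5s, which was not classed as a subunit and was itself split, at 0.01 and -0.06. Of 16 genes 3 were positive on both (29.2% of all genes), 3 were negative on both (24.1%) and 10 were split (46.8%). The median of the 16 was -0.00, and 0.07 on array 1 and -0.04 on array 2. Atp5g2 stood highest of all 78 members by its mean. It is 1 of 3 genes that encode the same mature subunit c of the proton-driven rotor. Its log2 signal was 11.64 in CD8+CD122+ and 11.39 in CD8+CD122- cells on array 1, and 11.14 and 10.90 on array 2. The ratios of 0.24 and 0.24 gave a mean of 0.24 ± 0.004, or 1.18-fold (limma's unadjusted p 0.0269, adjusted p 0.701). All 3 of its probes were positive on both arrays, the lowest value being 0.08 on array 2. The other genes of subunit c had smaller values, with 0.14 and 0.04 for Atp5g1 and -0.04 and -0.02 for Atp5g3, and how far a probe tells these related transcripts apart was not checked. Of the catalytic head, the alpha subunit gene Atp5a1 had -0.01 and 0.08. Atp5b, the catalytic beta subunit, was the lowest of the complex. Atp5b had a log2 signal of 13.18 in CD8+CD122+ and 13.37 in CD8+CD122- cells on array 1, and 13.95 and 14.03 on array 2, giving -0.19 and -0.08. All 3 Atp5b probes were negative on both arrays.

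Probes of the same gene were compared where a gene had more than 1 that was tested, which was so for 25 genes. In 4 of these, Atp5g1, Atp5g2, Cox7a2 and Cycs, all probes were positive on both arrays, and in 1, Atp5b, all were negative on both. In 4 others, Ndufab1, Ndufc1, Ndufs6 and Uqcrc1, all probes were positive on array 1 and negative on array 2, so the split between the arrays was shared by different probes of a gene. In the other 16 the probes disagreed in sign on at least 1 array. Some of these genes had a dim probe, such as Cox5a (mean log2 intensities 11.74 and 6.13), Ndufa3 (9.55 and 6.24) and Ndufb8 (10.43 and 6.31). In others, such as Uqcrh (13.26 and 11.69) and Atp5a1 (12.53 and 10.53), both probes were bright. Ndufs6, an accessory subunit, gave between 0.12 and 0.21 on array 1 and between -0.20 and -0.14 on array 2 over 3 probes. The mean ratios of a gene's probes spanned 0.06 at the median and at most 0.34, in Ndufb2. The probes of Ndufb2 had mean log2 intensities of 10.13 and 6.18.

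**Figure D3:**
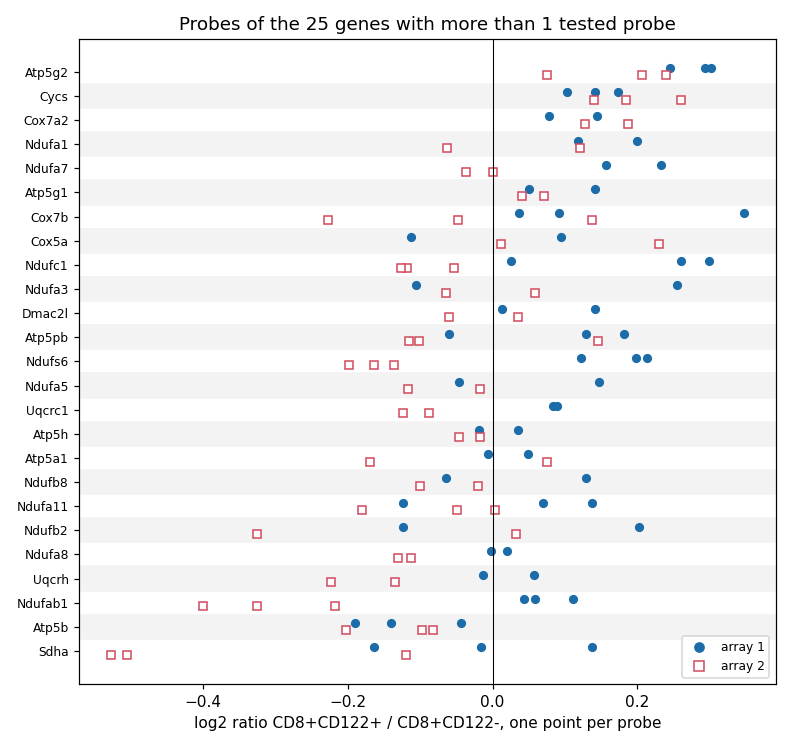
Log2 ratio of CD8+CD122+ over CD8+CD122- (x axis) of every tested probe of the 25 genes with more than 1, on array 1 (filled circles) and array 2 (open squares), sorted by the mean over probes. Atp5g2, Cycs, Cox7a2 and Atp5g1 lie right of 0 with every probe on both arrays, Atp5b lies left of 0, and Ndufs6, Ndufc1, Ndufab1 and Uqcrc1 have the arrays on opposite sides.

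On a single array some members did pass 1.2-fold. On array 1 these were 3 higher (Cox7b at 0.35, Ndufs4 at 0.31 and Ndufc1 at 0.30; 3.85% of members, against 4.18% of all genes) and 0 lower (5.38% of all genes). On array 2 there were 1 higher (Cox5b; 1.28%, against 8.87% of all genes) and 10 lower. The 10 were 12.8% of members, near the 13.1% of all genes, and 7 of them belonged to complex I, the others being Sdha, Cox7a2l and Ndufaf1. Among genes of mean log2 intensity at least 9 the shares of all genes were 10.7% higher and 12.6% lower on array 1, and 19.3% and 23.3% on array 2. Of the 60 members that bright, 3 were higher and 0 lower on array 1, and 1 was higher and 6 were lower on array 2. The higher genes of array 1 were all negative on array 2. The median absolute difference between the arrays was 0.17 for the members, beside 0.12 for all genes.

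Of 194 other genes listed for their bearing on the respiratory chain, 2 (1.03%) passed 1.2-fold on both arrays as higher and 1 (0.515%) as lower, beside the 2.03% and 2.15% of all genes. In 33 assembly factors, the member Ndufaf1 among them, which build the complexes or insert their cofactors, 0 passed 1.2-fold on both arrays in either direction, with a median of -0.04, and of 0.05 on array 1 and -0.24 on array 2. The mitochondrial ribosome makes the subunits encoded in mitochondrial DNA. Among 77 of its genes, 41 were positive on array 1 and negative on array 2 (25% of all genes). By the 1.2-fold measure 1 of the 77 was higher and 0 were lower. That gene was Mrpl52, a protein of the large subunit, at 0.45 and 0.61 (mean 0.53 ± 0.11, limma's adjusted p 0.582). Of 10 genes of fusion, fission and cristae 1 was higher, Chchd6, a part of the complex that shapes cristae, at 0.35 and 0.33 (limma's adjusted p 0.615). Of 14 genes of fatty acid oxidation 1 was lower, the medium-chain acyl-CoA dehydrogenase gene Acadm, at -0.34 and -0.35 (limma's adjusted p 0.612).

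None of 14 regulators of mitochondrial biogenesis, 9 carriers and porins, 23 import genes or 7 redox defence genes passed 1.2-fold on both arrays. Ppargc1a, a coactivator that drives mitochondrial biogenesis, had 0.01 and 0.01 and a low mean log2 intensity (6.95). Tfam, which packages and transcribes mitochondrial DNA, had -0.07 and 0.00. Atpif1, the inhibitor of ATP hydrolysis by ATP synthase, had 0.09 and 0.06. It was 1 of 4 genes listed with these complexes under other names, all positive on both arrays (29.2% of all genes). The others were Atp5md (0.06 and 0.34), Atp5mpl (0.46 and 0.12) and Uqcr10 (0.06 and 0.08). A list of 8 tested subunits that carry a current symbol of the family but another name in the scanner files was drawn up after the files were seen, and its median was 0.06. It shares Atp5md, Atp5mpl and Uqcr10 with the former. Its 5 other genes, Ndufa12, Ndufa13, Ndufb11, Ndufb6 and Ndufv3, were all split in sign (46.8% of all genes).

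**Figure D4:**
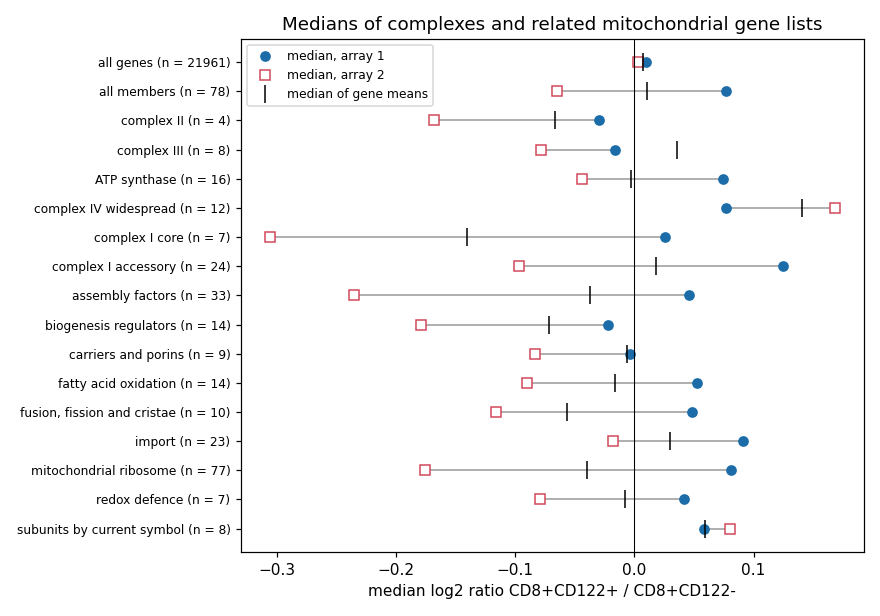
Median log2 ratio of CD8+CD122+ over CD8+CD122- (x axis) of all genes, of the members, of complexes and of related gene lists, on array 1 (filled circles) and array 2 (open squares), with the median of the gene means as a bar and the number of tested genes beside each name. Most lists lie right of 0 on array 1 and left of it on array 2. The widely expressed subunits of complex IV and the subunits by current symbol lie right of 0 on both, and all genes lie near 0. The 4 genes listed under other names are not drawn.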

How the data were processed

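Amplified messenger RNA of the sorted cells was hybridised to 2 dye-swapped arrays, per the labels. The deposited scanner files hold linear spot and background intensity values, flags of 0 or 1 and a log10 ratio, written by Agilent Feature Extraction A.7.5.1 (array 1) and 8.1.1.1 (array 2), per the file headers. The deposited value table holds the scanner's log10 ratio as CD8+CD122- over CD8+CD122+, opposite to the direction used here (100% of values equal at a tolerance of 1e-04 after turning the sign on array 1); its column medians are 0, and any centring is not stated there. The deposited flag values were used as other data, to filter spots.

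Of 43790 spots 2256 were controls and were left out, as were outlier spots. Background was corrected with normexp (offset 50) from mean spot and median local background signals, and ratios were normalised by loess within each array, and averaged per probe in limma 3.58.1 under R 4.3.3. The log2 signal of a population is its loess-normalised channel value. Folds are on this offset scale and understate changes of dim genes. Probes had to lie well above background in the same population on both arrays (30794 of 41174), and the brightest probe represented a gene (21961 genes). Probes were named through RefSeq's GRCm38.p6 table (21848 by accession, 5774 by symbol, 4394 by synonym), and 9158 kept the file's name. A genome build for the probes was not given in the sources used here. Genes were tested with lmFit and eBayes on both arrays (1 residual and 1.79 prior degrees of freedom, two-sided, Benjamini-Hochberg), and described by size on both arrays. The steps were run on simulated data whose planted differences were larger than that of any member. That run therefore does not bear on differences of the members' size. The number of arrays, 2, limits the precision.

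The members, gene lists and tests were chosen with earlier results of these data known. Named genes were a list of 19 members, the highest and lowest of each complex, the 4 members most split between arrays, genes of the related lists past 1.2-fold, and Ppargc1a, Tfam and Atpif1; other members named were chosen after their values were seen, as was the comparison with genes of log2 intensity at least 9. The values of 1 member are not reported here, and it is counted in all totals. Alternatives covered background correction, scanner processed signals, centring, filters, probe summaries, an intensity trend and each array alone.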

Additional observations from a re-analysis of the deposited data

How the results depend on the processing

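The count of members called by limma was 0 under every alternative run, and the counts at least 1.2-fold higher and lower on both arrays were 0 and 0 under all 8 that used both arrays. With each array alone, the number at least 1.2-fold higher ran from 1 to 3 and the number lower from 0 to 10. The median of complex II ran from -0.168 to -0.0299 and that of complex III from -0.0783 to -0.0162 with each array alone, so complex III turned sign against its value of 0.04 over both. The medians of all members (-0.07 to 0.08), complex I (-0.12 to 0.11) and ATP synthase (-0.04 to 0.07) also changed sign between the arrays, while complex IV (0.03 to 0.10) and cytochrome c (0.10 to 0.26) kept theirs.

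Member means kept their sign in 70 of 78 genes with median centring, 72 with the mean of all probes, 74 without background correction, 75 with the scanner's processed signals and 77 without the offset. Over 9 settings on both arrays the mean of Sdha ran from -0.43 to -0.20, that of Cox7a2l from -0.26 to -0.24 and that of Atp5g2 from 0.23 to 0.27. The 4 members under an unadjusted p of 0.05 became 0 with an intensity trend, the processed signals, no offset or median centring. Each ratio already pairs the populations within an array, and the labels give 1 group, so there was no replicate number to block on. The offset shrinks the ratios of dim isoforms.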
